A study of Rattus norvegicus with 6 samples.

Results

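Lipid handling was described in endothelial cells isolated from rat liver through 8 genes for lipases, a lipid droplet protein, fatty acid and lipoprotein uptake and a phospholipid phosphatase. The genes were Lpl, Lipe, Lipc, Cidea, Plpp3, Cd36, Fabp4 and Vldlr, taken from 10411 genes that had a probe set annotated to them alone. They were read by 12 of the 15866 probe sets of the Affymetrix rat 230A array, and every probe set with the symbol of 1 of these genes only was kept, dim ones included. The cells came from 3 arrays of cirrhotic adult male Wistar rats and 3 arrays of control Wistar rats, and the study set out to compare gene expression between them. Cells of either group were obtained with collagenase, a density spin and magnetic beads carrying antibodies. The sources used here do not state how cirrhosis was induced, which antigen was used for capture, the sex of the control rats or whether an array held 1 rat or a pool, so the spread between arrays may be partly technical. The 8 genes were chosen from the difference between these same cirrhotic and control arrays, so their differences are given as a description, without a test.

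Lipids reach the liver as chylomicron remnants and other lipoproteins and as fatty acids on albumin, and all of them meet the sinusoidal endothelium before they meet hepatocytes. Lipoprotein lipase and hepatic lipase act on lipoproteins at the vessel wall, while adipose triglyceride lipase, hormone-sensitive lipase and monoacylglycerol lipase break down stored triglyceride step by step inside cells. Fatty acids enter through CD36, are carried by fatty acid binding proteins and are stored in droplets, whose growth CIDE proteins control.

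Endothelial identity was checked first. All 12 measured pan-endothelial markers and all 7 measured sinusoidal markers were bright on all 6 arrays, none of them within the bacterial control probe sets that served as a measure of background. The summed signal of the pan-endothelial markers lay between 20933 and 23233 on cirrhotic arrays and between 44218 and 45115 on control arrays. Markers of other cells were also present. The summed signal of 12 stellate cell and fibroblast markers was 15840 to 27314 on cirrhotic and 4498 to 5226 on control arrays, that of 9 bile duct markers 5241 to 13475 and 771 to 1540, that of 11 hepatocyte markers 36714 to 71816 and 29849 to 41419, and that of 8 macrophage markers 5484 to 11684 and 4084 to 7776. The hepatocyte sums overlapped, but in limma's test 5 of the 11 hepatocyte genes were higher and 0 lower at an adjusted p under 0.05. Their median log2 difference was 0.78. For 11 T and NK cell markers the sum was 2162 to 5336 on cirrhotic and 2616 to 3717 on control arrays. In limma's test 4 of the 9 tested T and NK cell genes were higher and 0 lower at an adjusted p under 0.05. At an unadjusted p under 0.05, 4 were higher and 1 lower. In such bulk RNA, fewer cells of a type and less RNA per cell cannot be told apart. The macrophage markers moved apart: Lyz2 and Laptm5 rose (differences 1.32 and 1.40, adjusted p = 0.0122 and 0.00968), Clec4f fell by 3.22 (adjusted p = 0.00427) and the other 5 did not pass, so their sum is no measure of macrophage RNA alone. Cirrhotic array 3 had the highest hepatocyte sum and the lowest bile duct and macrophage sums of the cirrhotic arrays.

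Cells from cirrhotic livers had higher signals of Lpl, Cd36, Fabp4 and Vldlr and lower signals of Lipe, Cidea and Plpp3, and Lipc overlapped between the groups. Signals are in the linear units of the deposited table, scaled by the authors to nearly the same trimmed mean on each array. Differences are cirrhotic minus control on the log2(signal + 16) scale, where the added 16 shrinks the difference of dim probe sets. All cirrhotic arrays lay above all control arrays in 6 of the 12 probe sets, all 3 of Plpp3 and those of Lipe and Cidea were below, and Lipc overlapped. Over the 9519 probe sets of the array bright enough to be tested, such separation was found in 20.8% with cirrhotic above and 24.1% with cirrhotic below, 44.9% in all. Since this contrast chose the genes, nothing is read from their count. Of the 12 probe sets 9 passed the filter on dim probe sets, and the 3 that did not were all of Vldlr.

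**Figure D1:**
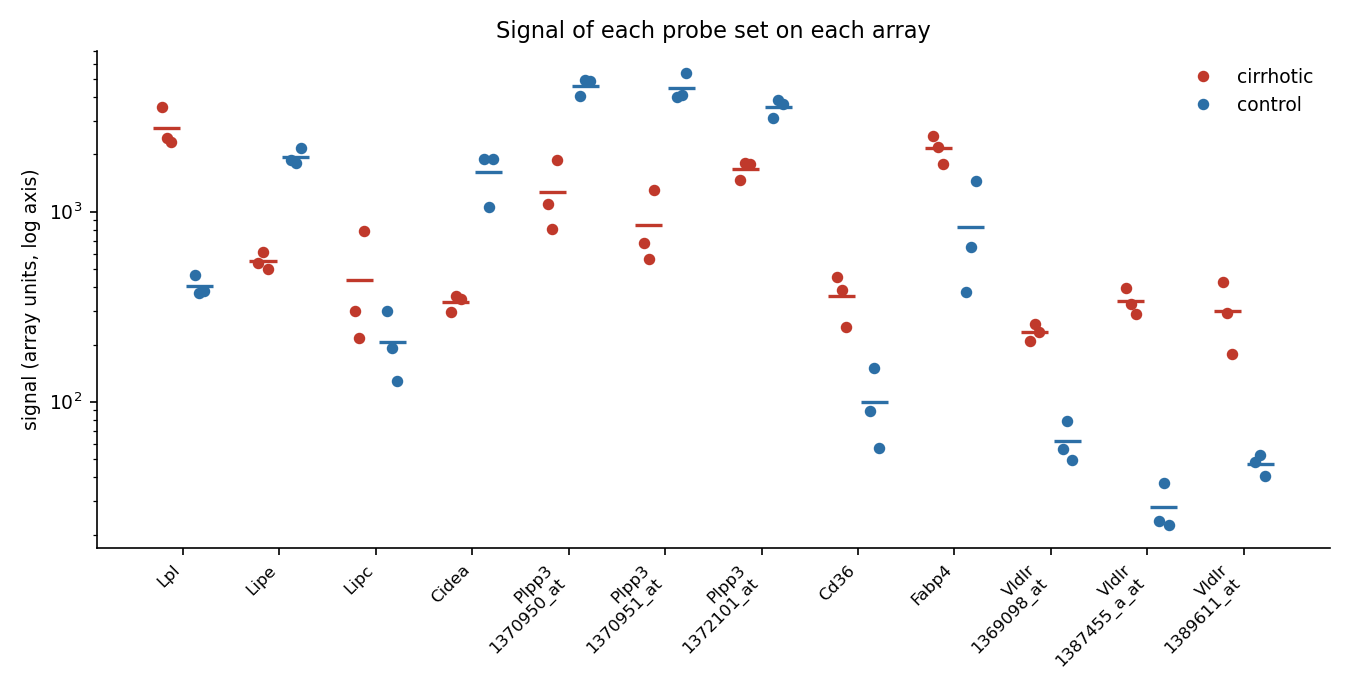
Signal of each of the 12 probe sets on each array, on a log axis in array units, with cirrhotic arrays (red) left of control arrays (blue), 1 point per array and a line at the mean of 3 arrays. Only the Lipc points overlap between the groups, and the lowest points of the plot are control arrays of Vldlr.

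Lpl encodes lipoprotein lipase, which is bound to the capillary wall and frees fatty acids from the triglyceride of chylomicrons and very low density lipoproteins. Its signal was 3539, 2433 and 2325 on cirrhotic arrays 1, 2 and 3, against 462.2, 373.6 and 384.4 on control arrays 1, 2 and 3. Every cirrhotic value was thus several times every control value, and cirrhotic array 1 was the highest. The means were 2766 ± 672 in cirrhotic and 407 ± 48.3 in control cells (SD, n = 3 each), a ratio of 6.80 and a log2 difference of 2.70 (SE 0.19). Leaving out each array in turn gave differences from 2.51 to 2.81. Macrophages also make lipoprotein lipase, and among the cirrhotic arrays the Lpl signal and the macrophage sum had the same order. The control arrays did not share it, with macrophage sums of 5522, 7776 and 4084 on control arrays 1, 2 and 3. Bile duct sums, 13475, 12505 and 5241 on the cirrhotic arrays, also had the Lpl order there, but not on the control arrays. The markers Lyz2, at 5282, 4298 and 2456 on cirrhotic and 1902, 1434 and 1299 on control arrays, and Laptm5, at 3199, 2851 and 1602 on cirrhotic and 890.8, 1174 and 738.2 on control arrays, were higher on every cirrhotic array. Clec4f, a lectin of Kupffer cells, read 116.3, 43.8 and 35.5 on cirrhotic and 682.4, 1333 and 331 on control arrays. What macrophage RNA contributed to the Lpl signal was not tested.

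Lipc encodes hepatic lipase, which hepatocytes secrete and which is held on the sinusoidal surface, where it acts on remnants and high density lipoproteins. The Lipc signal was 298.8, 216.2 and 794.3 on cirrhotic arrays 1, 2 and 3, against 300.8, 191.3 and 129.2 on control arrays 1, 2 and 3. The groups overlapped, and the highest value, on cirrhotic array 3, was well above all the others. The means were 436 ± 313 in cirrhotic and 207 ± 86.9 in control cells (SD, n = 3 each), and the log2 difference was 0.88 (SE 0.47), or 0.35 without cirrhotic array 3. The summed hepatocyte marker signal was 49466, 36714 and 71816 on the cirrhotic arrays and 41419, 30934 and 29849 on the control arrays, the same order as Lipc within each group. What hepatocyte RNA contributed to the Lipc signal was not tested.

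**Figure D2:**
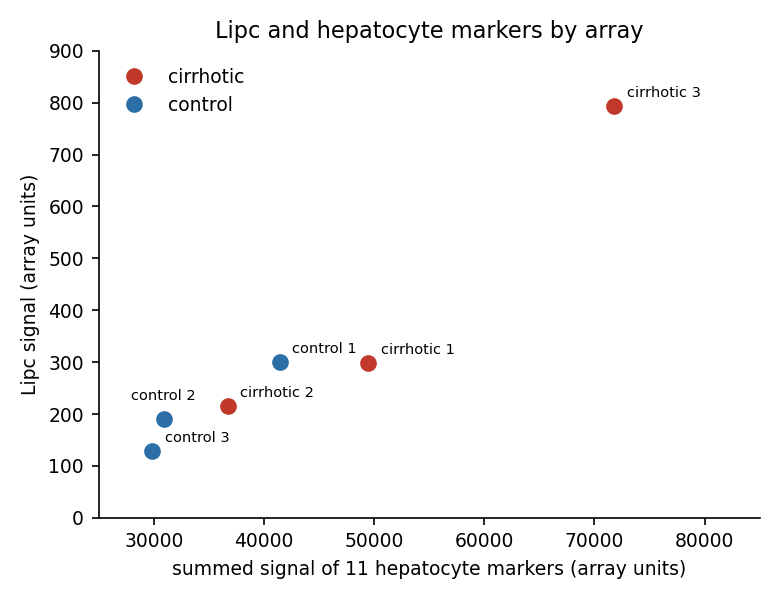
Lipc signal (vertical axis, array units) against the summed signal of 11 hepatocyte markers (horizontal axis, array units), 1 point per array, cirrhotic in red and control in blue. Cirrhotic array 3 is highest on both axes, with 794.3 and 71816, and control array 3 is lowest on both, with 129.2 and 29849.

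Lipe encodes hormone-sensitive lipase, which cuts diacylglycerol, cholesterol esters and retinyl esters inside cells. The signal of Lipe was 534.6, 611.2 and 501.5 on cirrhotic arrays 1, 2 and 3, against 1867, 1810 and 2160 on control arrays 1, 2 and 3. The arrays of each group lay close together and far from those of the other group. The means were 549 ± 56.3 in cirrhotic and 1946 ± 188 in control cells (SD, n = 3 each), so that control was 3.54 times cirrhotic, and the log2 difference was -1.80 (SE 0.14), between -1.87 and -1.72 with each array left out.

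Cidea encodes a lipid droplet protein that drives the fusion and growth of droplets in brown and white fat. The Cidea signal read 298.3, 358.4 and 345.5 on cirrhotic arrays 1, 2 and 3, against 1901, 1057 and 1897 on control arrays 1, 2 and 3. The cirrhotic arrays were nearly alike, and control array 2 lay between them and the other control arrays. The cirrhotic mean of 334 ± 31.6 and the control mean of 1618 ± 486 (SD, n = 3 each) correspond to a control level 4.84 times the cirrhotic one and to a log2 difference of -2.18 (SE 0.23), or -2.46 without control array 2. Lipe and Cidea are best known from adipocytes, so markers of that cell were read as well, some of them picked for mention after their values were seen. Lep, the leptin gene, lay within the bacterial control probe sets on all 6 arrays, at 3.10 to 5.10 in cirrhotic and 4.70 to 5.50 in control cells. Plin1, the coat protein of adipocyte droplets, read 35.5 to 76.3 in cirrhotic and 41.4 to 82.2 in control cells, and Ucp1, the uncoupling protein of brown fat, read 37.8 to 76.1 and 59.3 to 95.0, all under the brightness filter. Over all 7 adipocyte markers with a probe set, 2 were bright enough to be tested, Cfd and Pck1, and neither passed limma's test. Cfd was lower at an unadjusted p under 0.05 (difference -0.76, adjusted p = 0.123). Its signals of 122.7, 92.1 and 73.4 on cirrhotic and 164.2, 275.9 and 107.4 on control arrays overlapped. Aqp7, under the brightness filter, was lower without overlap, at 61.3 to 94.9 in cirrhotic and 95.6 to 110.9 in control cells. Slc2a4, also under the filter, overlapped. The summed signal of 3864 to 4096 in cirrhotic and 2320 to 4805 in control cells was mostly Pck1, which hepatocytes also make. Adipoq was not analysed here.

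Plpp3 encodes a phosphatase of the cell surface that removes the phosphate of lysophosphatidic acid and sphingosine 1-phosphate, and in mice endothelial Plpp3 is needed for an intact vessel barrier. The probe set 1370951_at read 687.1, 563.4 and 1301 on cirrhotic arrays 1, 2 and 3, against 4008, 4098 and 5345 on control arrays 1, 2 and 3. The groups were well apart, and cirrhotic array 3 was the highest of the cirrhotic arrays. The difference was -2.46 (SE 0.29), with means of 850 ± 395 in cirrhotic and 4484 ± 748 in control cells (SD, n = 3 each). The probe set 1370950_at gave -1.93 (SE 0.27), from 1102, 813.3 and 1871 on cirrhotic and 4050, 4904 and 4845 on control arrays. The third, 1372101_at, had cirrhotic signals of 1474, 1809 and 1773 and control signals of 3095, 3850 and 3706, and its difference of -1.07 (SE 0.14) was the smallest. All 3 probe sets were lower in cirrhotic cells, but cirrhotic array 3 stood above cirrhotic arrays 1 and 2 on only the first and second of them. The differences of Lipe, Cidea and Plpp3 stand beside those of the endothelial markers, which were lower as well, with a median of -1.08 over the 12 pan-endothelial genes (-1.63 to -0.74) and -1.25 over the 7 sinusoidal genes (-1.64 to -0.75). Lipe, Cidea and the first and second Plpp3 probe sets were below all of these genes, and the third Plpp3 probe set was within their range. The part that a smaller endothelial share of the RNA had in these values was not tested.

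Cd36 encodes the scavenger receptor and fatty acid translocase CD36, found on capillary endothelium, macrophages and fat cells. The Cd36 signal was 450.9, 384.8 and 248.3 on cirrhotic arrays 1, 2 and 3, against 89.4, 150.5 and 57.4 on control arrays 1, 2 and 3. The lowest cirrhotic value, on array 3, was still above the highest control value, on array 2. With means of 361 ± 103 in cirrhotic and 99.1 ± 47.3 in control cells (SD, n = 3 each), the ratio was 3.65 and the log2 difference 1.75 (SE 0.33). A further probe set, annotated to Cd36 and Cd36l1 together and therefore not counted, read 988.1, 904.9 and 627.2 on cirrhotic and 354.1, 336.5 and 201.4 on control arrays. It also had cirrhotic array 3 lowest in its group and control array 3 lowest in its own. The macrophage sums were 11684, 9718 and 5484 on cirrhotic and 5522, 7776 and 4084 on control arrays. The counted Cd36 probe set had their order in each group, and the further probe set had it on the cirrhotic arrays only. The highest control signal of the further probe set was on array 1. Bile duct sums had the order of the macrophage sums on the cirrhotic but not on the control arrays. They were 13475, 12505 and 5241 on cirrhotic and 1540, 1519 and 771 on control arrays, and the further probe set had their order in each group. The macrophage sum joins markers that rose and markers that fell. What macrophage or bile duct RNA contributed to the Cd36 signal was not tested.

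Fabp4 encodes a fatty acid binding protein of the cytosol, known from fat cells, macrophages and capillary endothelium. Signals of Fabp4 were 2502, 2177 and 1773 on cirrhotic arrays 1, 2 and 3, against 379.2, 649.7 and 1458 on control arrays 1, 2 and 3. The groups did not overlap, but the control arrays were spread widely and control array 3 came close to the cirrhotic ones. The means were 2151 ± 365 in cirrhotic and 829 ± 561 in control cells (SD, n = 3 each), and the log2 difference of 1.56 (SE 0.42) ranged from 1.12 without control array 1 to 2.06 without control array 3. Fabp4 had the order of the macrophage sums, and of the bile duct sums, on the cirrhotic arrays. It had neither order on the control arrays, where array 3, lowest in both sums, had the highest Fabp4 signal. What macrophage RNA contributed to the Fabp4 signal was not tested.

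Vldlr encodes the very low density lipoprotein receptor, which in muscle and fat helps lipoprotein lipase deliver triglyceride and is little expressed in normal liver. Its 3 probe sets all lay under the brightness filter because their control signals were low, and all 3 were higher in each cirrhotic array than in any control array. The probe set 1387455_a_at read 395.9, 327.9 and 290.1 on cirrhotic arrays 1, 2 and 3, against 23.7, 37.3 and 22.4 on control arrays 1, 2 and 3. Those control signals did not exceed the highest bacterial control probe set of their arrays, which lay between 21.7 and 49.9, so only a bound holds, and with the control arrays set at that level the signal was at least 8.20-fold higher in cirrhotic cells. The probe set 1369098_at had 209.5, 257.2 and 233 on cirrhotic and 56.5, 79.6 and 49.4 on control arrays, a ratio of 3.77 and a difference of 1.69 (SE 0.21). The probe set 1389611_at had 426, 293.7 and 177.5 on cirrhotic and 47.9, 52.4 and 40.5 on control arrays, a ratio of 6.37 and a difference of 2.25 (SE 0.30). The direction was shared by all 3, while the cirrhotic arrays kept no common order. On control arrays all 3 had the order of the macrophage sums, 5522, 7776 and 4084, though those of 1387455_a_at were within background. On cirrhotic arrays 1387455_a_at and 1389611_at had the order of the macrophage sums, 11684, 9718 and 5484, and 1369098_at did not. Bile duct sums shared that order on the cirrhotic but not on the control arrays. What macrophage RNA contributed to the Vldlr signal was not tested.

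**Figure D3:**
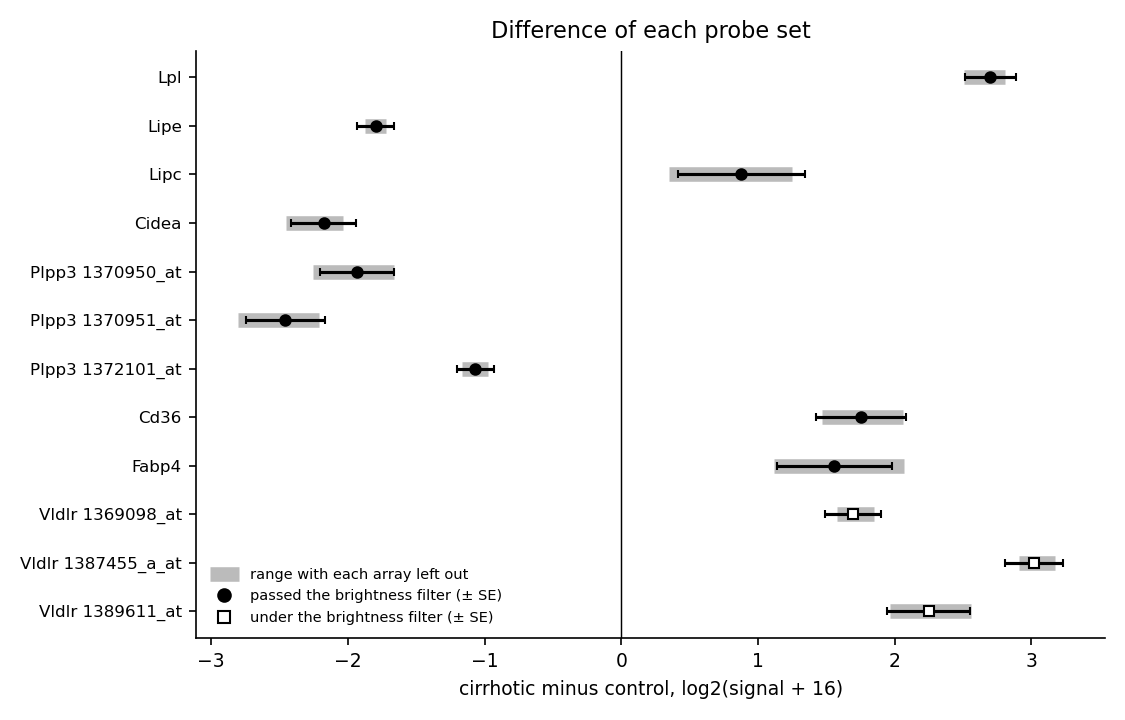
Difference of each probe set between cirrhotic and control arrays (horizontal axis, cirrhotic minus control in log2(signal + 16)), with SE as bars and, in grey, the range when each of the 6 arrays is left out in turn. Open squares are the Vldlr probe sets under the brightness filter. Lipc reaches down to 0.35 without cirrhotic array 3.

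Sequence before the start site was available in the RefSeq promoter table for 5 of the 8 genes, on the GRCr8 build, and is shown because these genes differ in direction between the groups. The 250 bases up to the annotated start are printed 5' to 3' on the strand of the gene. Capitals mark matches, on either strand, to 6 motifs, namely the nuclear receptor half-site AGGTCA, the binding motif of the hepatocyte factor HNF1 (GTTAAT, any base, then ATTAA), the TATA box TATAAA, the CCAAT box CCAAT, the GC box GGGCGG and the GATA motif AGATAA. The HNF1 motif was added after the Lipc sequence had been seen.
Cidea, chr18:63164567-63164816, plus strand: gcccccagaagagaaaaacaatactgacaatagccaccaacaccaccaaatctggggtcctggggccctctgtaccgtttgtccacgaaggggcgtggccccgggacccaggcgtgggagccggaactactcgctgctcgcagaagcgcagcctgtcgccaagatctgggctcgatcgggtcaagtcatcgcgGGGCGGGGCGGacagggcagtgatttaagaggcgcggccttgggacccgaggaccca
Plpp3, chr5:125155750-125155999, plus strand: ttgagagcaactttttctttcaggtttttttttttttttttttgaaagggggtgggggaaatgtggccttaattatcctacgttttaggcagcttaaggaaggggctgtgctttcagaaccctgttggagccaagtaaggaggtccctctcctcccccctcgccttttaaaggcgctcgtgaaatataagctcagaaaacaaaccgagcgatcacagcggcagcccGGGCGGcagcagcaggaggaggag
Cd36, chr4:18246332-18246581, plus strand: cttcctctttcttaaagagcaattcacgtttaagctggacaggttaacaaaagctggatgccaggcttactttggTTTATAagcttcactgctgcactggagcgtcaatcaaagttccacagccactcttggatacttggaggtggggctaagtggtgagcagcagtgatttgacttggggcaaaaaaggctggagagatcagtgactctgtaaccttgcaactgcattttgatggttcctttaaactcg
Vldlr, chr1:234240436-234240685, plus strand: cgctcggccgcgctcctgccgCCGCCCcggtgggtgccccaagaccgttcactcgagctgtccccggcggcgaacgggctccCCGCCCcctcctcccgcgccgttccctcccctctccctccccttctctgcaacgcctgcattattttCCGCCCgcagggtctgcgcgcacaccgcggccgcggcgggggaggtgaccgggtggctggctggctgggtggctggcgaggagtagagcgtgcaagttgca
Lipc, chr8:80516286-80516535, minus strand: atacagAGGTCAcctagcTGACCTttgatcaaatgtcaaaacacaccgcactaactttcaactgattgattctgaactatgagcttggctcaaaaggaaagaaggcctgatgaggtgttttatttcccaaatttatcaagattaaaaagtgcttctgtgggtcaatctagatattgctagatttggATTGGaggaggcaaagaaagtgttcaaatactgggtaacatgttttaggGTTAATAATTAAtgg

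The Lipc window held a match to the HNF1 motif 15 to 4 bases before the start, found in 0.0546% of 27457 rat promoters of the same length. Because that motif was added once this sequence had been seen, the match was certain in advance and nothing is read from the share. The Lipc window also held the half-site AGGTCA on each strand, 244 to 239 and 232 to 227 bases before the start. At least 1 such half-site was found in 13.7% of promoters. None of the other 4 windows held a half-site or an HNF1 match. GC boxes were found in Cidea (2, overlapping by 1 base), Plpp3 (1) and Vldlr (3), against 32.4% of all promoters, and the GC content was 63.6%, 49.6% and 73.6% in these windows. Cd36, at 45.6% GC, and Lipc, at 37.2%, had no GC box, and Cd36 alone of the 5 had a TATA match, on the reverse strand, against 13.1% of promoters. CCAAT was found in Lipc only, on the reverse strand (34.3% of promoters), and AGATAA in none (10% of promoters). No motif of these 6 was present in Cd36 and Vldlr and missing from Cidea and Plpp3, or the other way round, and a match of letters does not show binding.

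Other genes of these pathways were read from 6 lists of 125 genes, of which 102 had a probe set and 77 were bright enough to be tested on the brightest probe set. When limma's test was adjusted by Benjamini and Hochberg's method over all 9519 probe sets, 12 of the 77 were higher and 11 lower in cirrhotic cells at an adjusted p under 0.05. Across the whole array 12.3% were higher and 13.2% lower, 25.4% in all, so the 29.9% called here is near the background. The median log2 difference was 0.07 over these genes and -0.02 over all probe sets tested. The count of 23 dropped to 12 without cirrhotic array 1, 14 without control array 1 and 11 without control array 2 or control array 3.

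**Figure D4:**
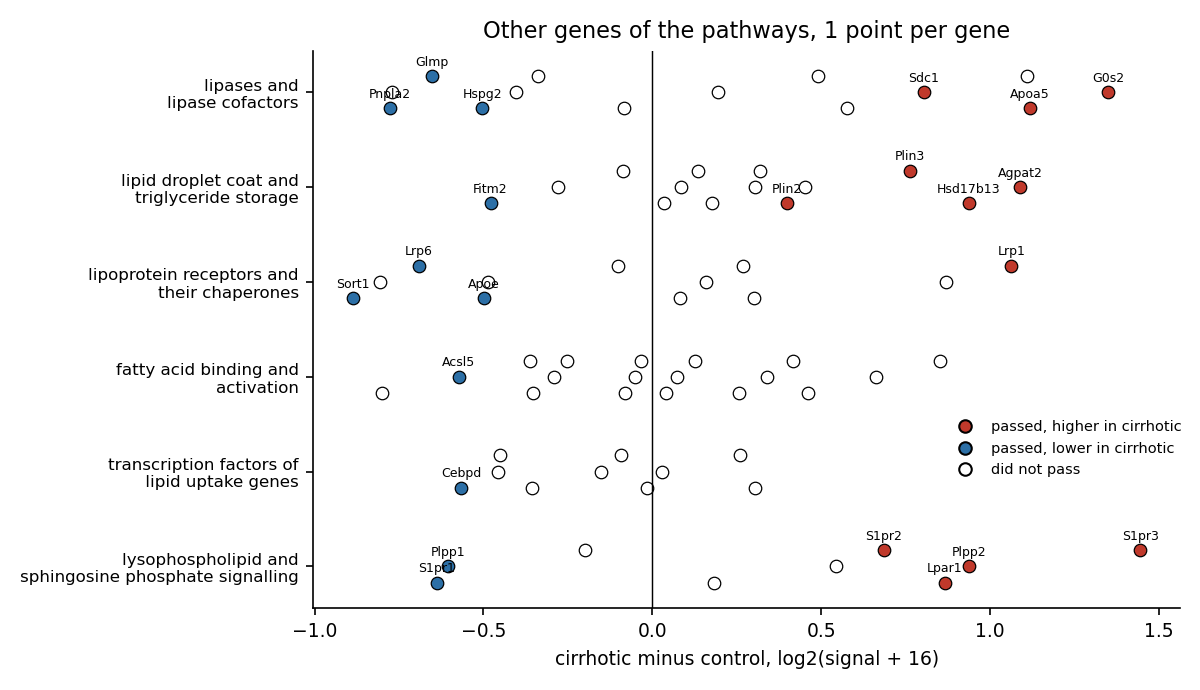
Differences of the tested genes of the 6 pathway lists (horizontal axis, cirrhotic minus control in log2(signal + 16)), 1 point per gene, offset vertically only for legibility. Filled points passed the test, red where higher and blue where lower in cirrhotic cells, and G0s2 and S1pr3 lie farthest to the right.

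Among 14 tested genes listed as lipases and lipase cofactors 3 rose and 3 fell, with a median difference of 0.06. G0s2, an inhibitor of adipose triglyceride lipase, rose, with signals of 1166, 962.4 and 914.1 on cirrhotic and 418.2, 453.6 and 302.1 on control arrays (difference 1.35, SE 0.18, adjusted p = 0.00212). Pnpla2, adipose triglyceride lipase itself, fell, with 376.6, 416.7 and 373.4 on cirrhotic and 570.4, 741.4 and 734.3 on control arrays (-0.78, SE 0.15, adjusted p = 0.00772). Neither overlapped between the groups, and each call held with every array left out in turn. Glmp, counted in this list though it is a lysosomal membrane protein and not a lipase, fell (-0.65, SE 0.14, adjusted p = 0.0117, and 0.0549 without control array 3). Among partners of lipoprotein lipase 3 passed, which are named after their values were seen. Apoa5, an apolipoprotein that promotes the action of the enzyme and is made by hepatocytes, rose (1.12, SE 0.30, adjusted p = 0.0291). Apoa5 signals were 374.1, 244 and 584.5 on cirrhotic and 198.4, 171.7 and 131.7 on control arrays, the order of the hepatocyte sums within each group. What hepatocyte RNA contributed to the Apoa5 signal was not tested. Sdc1, the heparan sulphate proteoglycan syndecan 1, rose (0.81, SE 0.20, adjusted p = 0.0205), and Hspg2, the proteoglycan perlecan, fell (-0.50, SE 0.16, adjusted p = 0.0498). The calls of Apoa5 and Sdc1 ended without cirrhotic array 1, control array 2 or control array 3 (adjusted p from 0.0705 to 0.104 and from 0.0581 to 0.0794), and that of Hspg2 without any array but cirrhotic array 1 (0.0625 to 0.163). Quantile normalization, no filter and no variance trend also ended the Hspg2 call (0.058, 0.0594 and 0.0538). Angptl4 and Gpihbp1 did not pass. Angptl4, which inactivates the enzyme, read 995.1, 326.4 and 228.4 on cirrhotic and 189.4, 218.1 and 158.9 on control arrays (adjusted p = 0.115), and Gpihbp1, which carries it across capillary endothelium, read 81.5, 83.5 and 153.5 against 137.1, 199.9 and 231.1 (adjusted p = 0.0788). Without cirrhotic array 3 the adjusted p was 0.0302 for Angptl4 and 0.0219 for Gpihbp1. Neither the lysosomal acid lipase gene Lipa (-0.34, SE 0.13, adjusted p = 0.0978) nor the monoacylglycerol lipase gene Mgll (0.58, SE 0.30, adjusted p = 0.189) passed. Lipg was not analysed here.

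Of 14 tested genes of lipid droplets and triglyceride storage 4 rose and 1 fell (median 0.24). Plin3, a coat protein of small droplets, rose, with 736.9, 782 and 870.7 on cirrhotic and 471, 443.4 and 471.2 on control arrays (0.76, SE 0.12, adjusted p = 0.00448). Agpat2, an acyltransferase of triglyceride synthesis, rose by 1.09 (SE 0.27, adjusted p = 0.0236), and its adjusted p was 0.0644, 0.0717 and 0.0843 without cirrhotic array 1, control array 2 and control array 3. Agpat2 signals were 218.3, 185.3 and 349.6 on cirrhotic and 145.7, 89.8 and 88.5 on control arrays, the order of the hepatocyte sums within each group. What hepatocyte RNA contributed to the Agpat2 signal was not tested. Fitm2, a protein of droplet formation at the endoplasmic reticulum, fell by 0.48 (SE 0.14, adjusted p = 0.036). It no longer passed with any 1 array left out except cirrhotic array 3 (adjusted p from 0.0632 to 0.112), or with no filter (0.0647). Plin2, the coat protein found on droplets of most cells, passed narrowly on the brighter of its 2 probe sets (0.40, SE 0.12, adjusted p = 0.0494). The probe set with the smallest p gave a difference of 1.21 (adjusted p = 0.00428). The call of the brighter probe set ended with any array left out (adjusted p from 0.055 to 0.154) and with median centring (0.134). Cidec, a relative of Cidea, was not analysed here.

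Of 12 tested lipoprotein receptors and related genes 1 rose and 3 fell (median -0.01). Lrp1, a large receptor of remnants that hepatocytes, macrophages and fibroblasts carry, rose, with 862.7, 752.4 and 817.8 on cirrhotic and 471.1, 356.2 and 324.3 on control arrays (1.06, SE 0.16, adjusted p = 0.00352). Sort1, sortilin, fell, with 598.6, 529.6 and 740.2 on cirrhotic and 1244, 969.4 and 1275 on control arrays (-0.89, SE 0.17, adjusted p = 0.00896). Apoe fell by 0.50 (SE 0.14, adjusted p = 0.0357), and the call ended without cirrhotic array 1 or any control array (adjusted p from 0.0835 to 0.113). No filter and no variance trend also ended the Apoe call (0.0805 and 0.0676). Scarb1, the high density lipoprotein receptor, did not pass (0.30, SE 0.17, adjusted p = 0.222). Olr1, a receptor of oxidised low density lipoprotein, was too dim to be tested and is named after its values were seen, at 525, 426.8 and 234.4 on cirrhotic and 37.2, 34.1 and 32.3 on control arrays.

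Fatty acid binding and activation genes gave 0 rises and 1 fall in limma's test among 18 tested (median 0.0046), and at an unadjusted p under 0.05 1 was higher and 3 were lower. The fall was that of the acyl-CoA synthetase Acsl5 (-0.57, SE 0.12, adjusted p = 0.0133), with an adjusted p of 0.0502 without cirrhotic array 1 and 0.0569 without control array 1. Fabp5, a binding protein of the same family as Fabp4, read 4288, 3903 and 3919 on cirrhotic and 3497, 4206 and 4092 on control arrays (0.04, SE 0.11, adjusted p = 0.811), and these overlapped. Dbi, an acyl-CoA binding protein, and the fatty acid transporter Slc27a4 had differences of 0.85 (adjusted p = 0.0628) and -0.35 (adjusted p = 0.0968) and did not pass. Dbi had an adjusted p of 0.0161 without cirrhotic array 2.

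Transcription factors of lipid genes gave 0 rises and 1 fall in limma's test among 10 tested (median -0.12), with 0 higher and 2 lower at an unadjusted p under 0.05. Cebpd, a factor of early fat cell differentiation, fell by 0.56 (SE 0.17, adjusted p = 0.0471). It no longer passed with any array left out except cirrhotic array 1 (adjusted p from 0.0744 to 0.156). No filter and no variance trend also ended the Cebpd call (0.0623 and 0.0556). Ppard (-0.46, SE 0.16, adjusted p = 0.0767, and 0.0245 without cirrhotic array 2) and Klf15 (-0.36, adjusted p = 0.256) did not pass. Pparg, which in fat cells drives Lpl, Cd36, Fabp4 and Cidea, was too dim to be tested, at 84.2, 85.5 and 95.3 on cirrhotic and 67.3, 77 and 62.2 on control arrays. Ppara read 6.40 to 12.6 in cirrhotic and 6.50 to 10.8 in control cells. Meox2, a factor of heart capillary endothelium, read 48.7 to 113.7 in cirrhotic and 66.2 to 110.9 in control cells, and it and Ppara were too dim as well.

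Lysophospholipid and sphingosine phosphate genes, the pathway of Plpp3, had 4 rises and 2 falls among 9 tested (median 0.54). Plpp1, a phosphatase of the same family, fell, with 4936, 4334 and 4422 on cirrhotic and 6628, 6997 and 7204 on control arrays (-0.61, SE 0.09, adjusted p = 0.0032). Plpp2, also of that family, rose, with 233.1, 237 and 274.5 on cirrhotic and 132.5, 153.2 and 87.6 on control arrays (0.94, SE 0.21, adjusted p = 0.0148, and 0.0504 without cirrhotic array 1). The sphingosine phosphate receptor S1pr3 rose, with 758.3, 552.9 and 495.8 on cirrhotic and 216.7, 189.1 and 217.8 on control arrays (1.45, SE 0.18, adjusted p = 0.00143), and S1pr2 rose by 0.69 (SE 0.15, adjusted p = 0.014, and 0.0667 without cirrhotic array 1). The main endothelial receptor S1pr1 fell by 0.64 (SE 0.14, adjusted p = 0.0153), with an adjusted p of 0.0579 and 0.0671 without control arrays 2 and 3. S1pr3 and S1pr2 are also receptors of stellate cells, and the stellate cell and fibroblast markers had 7 of 10 tested genes higher and 0 lower in limma's test, also at an unadjusted p under 0.05, with a median of 2.34. What stellate cell RNA contributed was not tested. Lpar1, a receptor of lysophosphatidic acid, rose by 0.87 (SE 0.24, adjusted p = 0.0315). Its call ended without any array but cirrhotic array 3 (adjusted p from 0.0514 to 0.122) and with no filter (0.053). Plpp2, Lpar1 and S1pr1 are outside the rule for named genes and are given because they belong to the family and pathway of Plpp3.

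The probe sets whose pattern over the 6 arrays was most like that of each gene were sought by Pearson's r on the log2 scale among 8177 tested probe sets with a symbol. With 2 groups that differ, most of such an r is the group difference, so it is a description over 6 arrays. Lpl was most like Ola1, Cd200 and Lox (r of 0.997 for each), and Lipe most like Slc39a8, Lrg1 and Mylk3 (0.996 to 0.997). Lipc was most like Slc27a5, Aox1 and Ephx2 (0.992 to 0.995), 3 genes known for their high level in hepatocytes. Cidea was most like Serpinb6a, Tprg1l and Tssc4 (0.998 to 0.999), and the Plpp3 probe set 1372101_at most like Isca1, Mtf1 and Mpp3 (0.995 to 0.996). Cd36 was most like Ptger4, Extl3 and Erp29 (0.994 to 0.995), and Fabp4 most like Tmed10, Dnm1l and Exosc4 (0.978 to 0.993). Vldlr had no tested probe set. None of the 8 genes was among the 3 most like another of them.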

How the data were processed

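Liver endothelial cell RNA of cirrhotic and control Wistar rats was hybridised to 3 Affymetrix rat 230A arrays per group, per the labels. The table holds intensity in linear units, as the authors deposited it, with a single signal for each probe set on an array. The software that made them is not given in the sources used here. The trimmed mean lay between 399.2 and 399.6 on all arrays, so the authors' scaling was kept. The labels name no batch. No detection calls were used, 0 value columns were left aside, and the number of arrays limits the precision. Groups and numbers are those of the titles, and the control array whose title has no number was called 1.

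Values were turned into log2(signal + 16), 16 being the 10th percentile. The 57 control probe sets and the 40% of the others with the lowest mean were left out (6347 removed, 9519 tested, a signal of about 127). The difference was tested in R 4.3.3 with limma 3.58.1 (lmFit, eBayes with a variance trend, two-sided p, Benjamini-Hochberg over the 9519, threshold 0.05). A run on simulated data, with independent noise and few changed probe sets, checked the code only. It does not give the error rate in these data. Background was the highest of 27 bacterial control probe sets per array. Of 15866 probe sets 12783 had 1 symbol, 312 several and 2771 none, and 12748 of the first were matched to the GRCr8 gene table by identifier.

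The 8 genes, the 6 pathway lists and the 8 cell type lists were chosen with earlier results of these data known. The genes named were the 8, the 3 with the smallest p in each pathway list, 15 set names whatever their result, and the 3 patterns most like each of the 8. Alternatives covered scaling, the added constant, the filter, the variance model, the probe set per gene, leaving out each array, and a block on the array number.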

Additional observations from a re-analysis of the deposited data

How the results depend on the processing

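All 12 probe sets of the 8 genes kept the sign of their difference under all 15 alternatives. Quantile normalization, median centring, an added 1 or 126 in place of 16, no filter or a filter at 60%, no variance trend and the probe set with the smallest p left the counts of probe sets and pathway genes called within 1.5 times those reported. By direction, pathway genes called were 11 higher and 6 lower with no filter and 6 higher and 10 lower with the filter at 60%, against 12 and 11. The added 126 shrank Cd36 to 1.11 and the Vldlr probe set 1387455_a_at to 1.59. With each array left out, the probe sets called numbered 1341 to 2472 against 2421, lowest without control array 3 (1341) and cirrhotic array 1 (1366), and the pathway genes called 11 to 22 against 23. The probe sets of the 8 genes without overlap numbered 11 to 12 of 12. With the array number as a replicate block, which only arrays 2 and 3 of each group allow since 1 control title has no number, 908 probe sets and 7 pathway genes were called, from 4 arrays in place of 6. Under that block Fabp4 had a difference of 1.00 and Lipc one of 1.32. The deviations of arrays sharing a number from their group means had r = -0.01 for number 2 and -0.16 for number 3. With 1 pair of arrays per number these values cannot exclude pairing. The numbers were not taken as pairs because the labels name no pairing. Signal over background limits Vldlr, Cd36, Olr1, Pparg and other dim genes, and no value here shows a change in total RNA per cell.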
